A study of Mus musculus with 6 samples.

Results

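Levels of 10 blood progenitor genes were compared between WT and Hnrnpl-null mouse ovaries. The genes are Myb, Spi1, Gata2, Cebpa, Cebpe, Gfi1, Tal1, Lyl1 and Ikzf1, which encode transcription factors, and Csf3r, which encodes the granulocyte growth factor receptor. They are 10 of the 25239 genes in the count table, and all 10 were among the 14849 genes left by the filter on low counts. The list was chosen from this same comparison after Myb and Spi1 had been seen to be higher in the Hnrnpl-null libraries. The fold changes and calls of the 10 genes are therefore given as a description, with no p-value, and support nothing beyond themselves.

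The data are RNA-seq counts of ovaries taken at E18.5 from mice of strain C57BL/6, in 3 libraries with the genotype WT and 3 with the genotype Hnrnpl-null. Hnrnpl encodes a nuclear RNA-binding protein that regulates splicing, and the study's title links its splicing to germ cells and the first follicles. Ovaries were digested with Liberase and DNase to single cells before total RNA was taken. The labels name the cell type as oocyte and name no sort, no Cre driver, no deleted exons and no pooling, and CKO in the Hnrnpl-null titles is not explained. The name of the deposited table holds the name of Stra8, a germ cell gene, with no explanation either. Nothing says that the 3 libraries of a group came from separate animals, so the spread between them may be in part technical. Postnatal ovaries named in the design text are not analysed here.

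Total counts per library ran from 8949781 to 22401419. Counts outside Rn45s, the 45S pre-ribosomal RNA, ranged from 1757572 to 10980179 per library, and Rn45s itself took 18.6% to 86.1% of the total. WT replicate 1 (83.0%) and Hnrnpl-null replicate 3 (86.1%) were the richest. A read pair was worth about 2 counts, so 1 pair corresponds to 0.0761 CPM (counts scaled to the library's TMM-adjusted total) in the deepest library and to 0.625 CPM in Hnrnpl-null replicate 3. Hnrnpl did not separate the groups, with means of 162 ± 14.8 and 184 ± 25.5 CPM for WT and Hnrnpl-null (SD over 3 libraries), so its count does not check the labels. The samples held both germ cells and somatic cells: 6 oocyte genes summed to 146 to 165 CPM in the WT libraries and 53.0 to 70.0 CPM in the Hnrnpl-null ones, and 6 ovarian somatic genes to 458 to 480 CPM and 477 to 490 CPM.

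Blood cells arise from stem and progenitor cells whose choices are set by a small number of transcription factors. Tal1, Lyl1 and Gata2 act in stem and early progenitor cells, Myb keeps progenitors dividing, and Spi1 (PU.1) and Cebpa direct progenitors to granulocytes and macrophages. Gfi1 and Cebpe act later in granulocyte development, with Cebpe needed for the secondary granules, and Ikzf1 (Ikaros) acts in lymphoid and early myeloid cells. Granulocytes fill their primary granules at the promyelocyte stage, their secondary granules at the myelocyte stage, and acquire neutrophil effector genes last. Gata2 and Spi1 are also used by mast cells, and Tal1, Lyl1 and Gata2 by endothelial cells.

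Of the 10 genes, 5 were higher in the Hnrnpl-null libraries by edgeR's quasi-likelihood test at an adjusted p below 0.05, 0 were lower and 5 were not called. Over all genes tested, 2.67% were called higher and 1.79% lower. The genes called were Myb, Ikzf1, Spi1, Csf3r and Gata2, with fold changes from 35.1 for Myb down to 1.60 for Gata2. All 3 Hnrnpl-null libraries lay above all 3 WT libraries for 9 of the 10 genes, against 12.4% of all genes tested, with Cebpe the exception. Since the genes were chosen on this contrast, nothing is read from these counts. Without WT replicate 1 and Hnrnpl-null replicate 3, the 2 libraries richest in Rn45s, 7 of the 10 were called, and 3 were called without WT replicate 2, WT replicate 3 or Hnrnpl-null replicate 2. Counts come from whole samples, in which more cells of a type and more RNA per cell cannot be told apart.

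**Figure D1:**
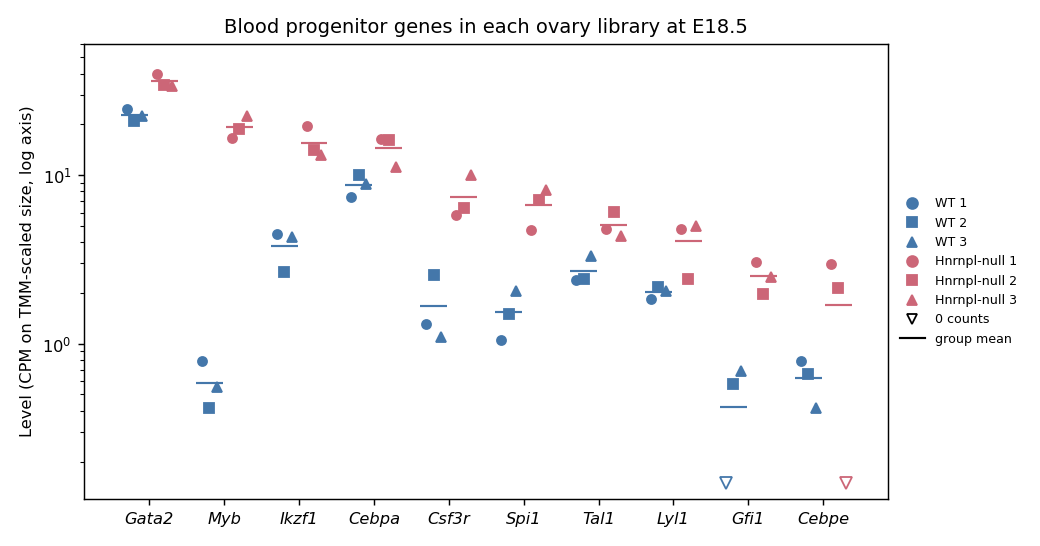
Level of each of the 10 genes in CPM (log axis) in the 3 WT and 3 Hnrnpl-null libraries, with 1 point per library, lines at the group means and open triangles for 0 counts. Myb shows the widest gap, from at most 0.790 CPM in WT to at least 16.5 CPM in Hnrnpl-null, and Cebpe is the gene whose groups overlap, with no count in Hnrnpl-null replicate 3.

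Myb (chr10:21124930-21160984, mm10, minus strand), which maintains dividing progenitors, had the widest separation. WT replicates 1 to 3 held 6, 10 and 8 counts of it and the Hnrnpl-null replicates 392, 494 and 72. In CPM these were 0.790, 0.415 and 0.551 in WT and 16.5, 18.8 and 22.5 in Hnrnpl-null. WT was thus at a few read pairs in every library, while each Hnrnpl-null library stood far above all of WT. Hnrnpl-null over WT gave a ratio of 35.1 (95% interval 22.3 to 55.4), a log2 fold change of 5.13 ± 0.30 (SE). Each Hnrnpl-null library alone was 28.2, 32.1 and 38.4 times the WT mean. Myb was called in all 15 alternative settings, with log2 fold changes of 4.87 to 5.31.

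Spi1 (chr2:91096678-91115759, plus strand) encodes PU.1, an Ets factor of myeloid commitment. Its level was 1.05, 1.49 and 2.07 CPM in the WT libraries and 4.72, 7.08 and 8.12 CPM in the Hnrnpl-null ones. The groups did not overlap, and the lowest Hnrnpl-null library was the first. The ratio was 4.08 (95% interval 2.30 to 7.25), a log2 fold change of 2.03 ± 0.38 (SE). Without WT replicate 2 or Hnrnpl-null replicate 2 the log2 fold change was 1.98 and 1.96 and Spi1 was no longer called.

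Cebpa (chr7:35119293-35121931, plus strand), which with PU.1 drives the step to granulocyte and macrophage progenitors, had a smaller ratio. It was at 7.38, 10 and 8.82 CPM in the WT libraries and 16.4, 16.1 and 11.2 CPM in the Hnrnpl-null ones. Hnrnpl-null replicate 3 lay close to the highest WT library. The ratio was 1.69 (95% interval 1.24 to 2.32) and Cebpa was not called. It was called in 6 of 15 alternative settings, among them the one without Hnrnpl-null replicate 3, where its log2 fold change was 0.88 against 0.76 with all libraries.

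Gfi1 and Cebpe, the factors of later granulocyte stages, rested on few reads. Gfi1 (chr5:107716655-107725805, minus strand), a repressor that favours granulocytes over monocytes, had 0, 14 and 10 counts in WT and 72, 52 and 8 in Hnrnpl-null. Its levels were 0, 0.580 and 0.689 CPM against 3.04, 1.98 and 2.50 CPM. The groups separated, but the WT values were at or near the depth limit. The ratio was 5.20 with a 95% interval of 1.78 to 15.2, and Gfi1 was not called. It was called by DESeq2 (log2 fold change 2.42) and by edgeR with no filter on low counts (2.39).

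Cebpe (chr14:54710363-54712174, minus strand), the factor of secondary granule genes, had 6, 16 and 6 counts in WT and 70, 56 and 0 in Hnrnpl-null. In CPM it was 0.790, 0.663 and 0.413 against 2.95, 2.13 and 0. Replicates 1 and 2 of Hnrnpl-null were above all of WT, and replicate 3 had no count. At the depth of replicate 3 a count of 0 allows up to 1.87 CPM, taking 3 read pairs as the limit (counting error only), so a level near that of WT was not detectable there. The 95% interval of the ratio, 3.17, ran from 1.0 to 10. Without both libraries richest in Rn45s Cebpe was called, at a log2 fold change of 2.2.

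Gata2 (chr6:88193891-88207032, plus strand), a zinc finger factor of stem cells, early progenitors and mast cells, had the highest level of the 10 genes in both groups, in CPM and per kilobase. It was at 24.8, 21.1 and 22.5 CPM in the WT libraries and 39.8, 34.4 and 33.7 CPM in the Hnrnpl-null ones. The replicates lay close together and the groups did not overlap. The ratio was 1.60 (95% interval 1.30 to 1.96). Leaving out WT replicate 2, WT replicate 3, Hnrnpl-null replicate 1 or Hnrnpl-null replicate 2 ended the call, and the log2 fold change was then 0.62, 0.67, 0.59 and 0.71, against 0.67 with all libraries.

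Tal1 and Lyl1, related basic helix-loop-helix factors of stem cells, were not called in any of the 15 alternative settings. Tal1 (chr4:115056426-115071755, plus strand) measured 2.37, 2.40 and 3.31 CPM in the WT libraries and 4.81, 6.02 and 4.37 CPM in the Hnrnpl-null ones. Lyl1 (chr8:84701457-84704716, plus strand) was at 1.84, 2.16 and 2.07 CPM in the WT libraries and 4.81, 2.44 and 5.0 CPM in the Hnrnpl-null ones. All Hnrnpl-null values of both genes were above those of WT, with Hnrnpl-null replicate 2 close to WT for Lyl1. The ratios were 1.91 (95% interval 1.15 to 3.16) for Tal1 and 1.93 (1.03 to 3.63) for Lyl1. Exons of Lyl1 overlap those of Nfix, so without a stated strand setting reads of the pair cannot be told apart.

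Ikzf1 (chr11:11685925-11772926, plus strand), the zinc finger factor Ikaros, was higher in every setting. It was at 4.48, 2.65 and 4.27 CPM in the WT libraries and 19.5, 14.0 and 13.1 CPM in the Hnrnpl-null ones. The lowest Hnrnpl-null library was far above the highest WT library. The ratio was 4.26 (95% interval 2.86 to 6.36), and over the 15 alternatives the log2 fold change ran from 1.85 to 2.31.

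Csf3r (chr4:126024659-126044975, plus strand) encodes the receptor for granulocyte colony-stimulating factor, the cytokine of neutrophil production. Its level was 1.32, 2.57 and 1.10 CPM in the WT libraries and 5.82, 6.40 and 10 CPM in the Hnrnpl-null ones. The groups did not overlap, and Hnrnpl-null replicate 3 was the highest. The ratio was 4.05 (95% interval 2.23 to 7.36), a log2 fold change of 2.02 ± 0.40 (SE). Without WT replicate 3 it was 1.78 and Csf3r was not called.

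**Figure D2:**
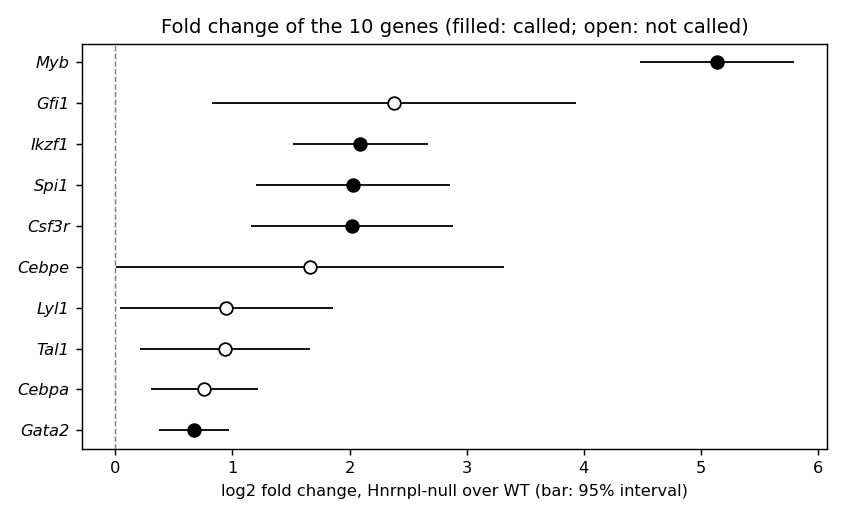
Log2 fold change of Hnrnpl-null over WT for the 10 genes, with 95% intervals as bars (edgeR, n = 3 libraries per group), filled where called. Myb, at 5.13, stands apart from Ikzf1, Spi1 and Csf3r near 2.09, 2.03 and 2.02, and the widest intervals are those of Gfi1 and Cebpe.

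Per kilobase of exonic length, the scale on which genes can be compared, the order of levels differed between the groups. In WT, Gata2 (6.79 ± 0.558 CPM per kb) and Cebpa (3.31 ± 0.504) were the highest, and Myb (0.155 ± 0.0504) and Gfi1 (0.136 ± 0.119) the lowest and within 1 SD of each other. Between them lay Lyl1 (1.12 ± 0.0891) and Spi1 (1.06 ± 0.349), within 1 SD of each other, and then Ikzf1 (0.671 ± 0.177), Tal1 (0.630 ± 0.124), Cebpe (0.503 ± 0.155) and Csf3r (0.411 ± 0.196), each within 1 SD of the next. In Hnrnpl-null, Gata2 (10.7 ± 0.996) was again first, followed by Cebpa (5.53 ± 1.10), Myb (5.10 ± 0.798) and Spi1 (4.57 ± 1.2), which differed by less than the SD of Cebpa. Myb thus went from ninth of the 10 to a place among the upper 4. The lower Hnrnpl-null levels were those of Ikzf1 (2.74 ± 0.607), Lyl1 (2.27 ± 0.792) and Csf3r (1.83 ± 0.560), whose neighbours lay within 1 SD of each other. Cebpe (1.37 ± 1.23), Tal1 (1.19 ± 0.199) and Gfi1 (0.806 ± 0.170) came last, with Gfi1 below Tal1 by more than the SD of either.

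Leukocyte genes as a group were also higher, so each level was set against them. A list of 8 genes found in nearly all leukocytes, among them Ptprc (CD45) and Coro1a, summed to 37.9 to 50.3 CPM in the WT libraries and 157 to 169 CPM in the Hnrnpl-null ones, with 7 of 8 called higher, 0 lower and a median log2 fold change of 1.82, against -0.01 for all genes tested. Myb was higher relative to this sum as well, going from 1.57%, 0.967% and 1.45% of it in WT to 9.78%, 11.4% and 14.3% in Hnrnpl-null. Every Hnrnpl-null library was above every WT library on this scale.

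For Spi1, Ikzf1 and Csf3r the groups overlapped on that scale. The sum gives most weight to abundant genes, in WT to Lcp1 (17.2 CPM) and Laptm5 (11.5 CPM). Their ratios of group means, Hnrnpl-null over WT, were 2.77 and 3.59. Over the list these ratios ran from 2.26 for Itgb2 to 8.15 for Coro1a, so the percentages depend on the genes summed. Scales made from single genes of the list were not compared. Spi1 was at 3.68 ± 1.69% of the leukocyte sum in WT and 4.08 ± 1.2% in Hnrnpl-null (SD, n = 3 each), Ikzf1 at 8.79 ± 2.54% and 9.45 ± 1.80%, and Csf3r at 3.84 ± 1.87% and 4.56 ± 1.57%. Gfi1 and Cebpe overlapped too. Gata2 had a smaller share in Hnrnpl-null, from 52.5 ± 5.83% to 22.0 ± 1.44%, as did Cebpa (20.4 ± 5.01% to 8.87 ± 1.49%), Tal1 (6.35 ± 2.11% to 3.09 ± 0.481%) and Lyl1 (4.72 ± 0.935% to 2.50 ± 0.901%). For these 4 all Hnrnpl-null libraries were below all WT libraries on this scale. In CPM these 4 were higher in Hnrnpl-null (ratios of 1.60, 1.69, 1.91 and 1.93). A gene that rises less than the sum must fall on this scale. How much of each level came from leukocytes was not tested. These percentages are a description with no test.

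**Figure D3:**
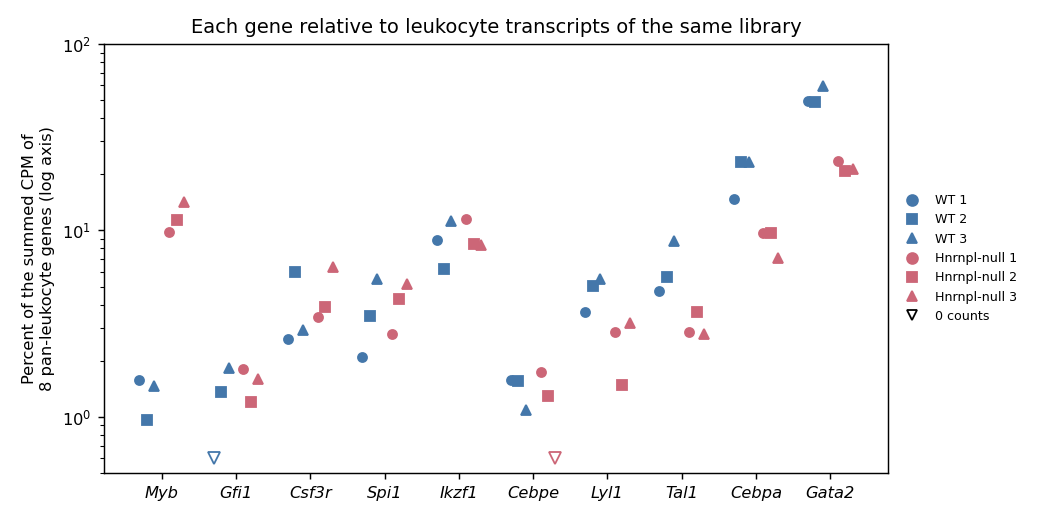
Each of the 10 genes as a percentage of the summed CPM of 8 pan-leukocyte genes (log axis), with 1 point per library WT beside Hnrnpl-null and open triangles for 0 counts. Myb is the gene whose Hnrnpl-null libraries (9.78% to 14.3%) all lie above WT, while Gata2, Cebpa, Tal1 and Lyl1 lie below WT in every Hnrnpl-null library.

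Few other transcription factors of blood cells passed the test. Of 14 further factors of stem and early progenitor cells, all tested, 1 was higher and 0 lower by edgeR, with a median log2 fold change of 0.11. In limma-voom, with halved counts and without both libraries richest in Rn45s, 1 was lower. The gene called was Etv6, an Ets repressor, which rose from 32.2 ± 1.25 to 45.8 ± 1.04 CPM (edgeR adjusted p = 0.026), a call that each of the WT libraries and Hnrnpl-null replicates 1 and 2 ended when left out (edgeR adjusted p of 0.072 to 0.12). Runx1, the founding factor of definitive blood, had 61.9 ± 2.55 and 66.9 ± 1.97 CPM and was not called. Its WT level alone exceeded the sum of the 8 pan-leukocyte genes in WT (37.9 to 50.3 CPM). Which cells it came from was not tested. Of 13 other granulocyte and monocyte factors, 0 were higher by edgeR (1 by DESeq2, by limma-voom or without Hnrnpl-null replicate 3, 5 with an unadjusted p below 0.05 in either direction) and Egr2 was lower, from 65.2 ± 11.7 to 39.7 ± 1.67 CPM (edgeR adjusted p = 0.010), and leaving out either replicate 2 ended the call (edgeR adjusted p = 0.077 without that of WT and 0.068 without that of Hnrnpl-null). Irf8, which favours monocytes over granulocytes, had 2.18 ± 0.565 and 5.22 ± 1.85 CPM and was not called.

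Erythroid, megakaryocyte and lymphoid factors showed no rise that passed the test. Gata1, which drives red cell development, had 5.98 ± 0.312 CPM in WT against 5.91 ± 1.92 CPM, and of its list of 5 genes 3 were tested and 0 called by edgeR, by DESeq2 or by limma-voom, while 1 had an unadjusted p below 0.05. Among 5 lymphoid factors tested of 9, 0 were higher and 1 was lower, and 0 were lower when WT replicate 2, Hnrnpl-null replicate 1 or Hnrnpl-null replicate 2 was left out. The median log2 fold change of the lymphoid list was -0.47.

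Among receptors of blood cell growth factors other than Csf3r, 2 of 10 tested were higher and 0 lower (median log2 fold change 0.26), and with no filter on low counts 4 were higher. Csf2rb, the common beta chain of the GM-CSF, IL-3 and IL-5 receptors, was at 3.16, 4.15 and 4.0 CPM in the WT libraries and 13.4, 16.3 and 15 CPM in the Hnrnpl-null ones. The groups were far apart and its call (edgeR adjusted p = 2.0e-04) held in all 15 alternatives. Il6ra, the interleukin-6 receptor, rose from 4.58 ± 0.745 to 10.2 ± 2.29 CPM (edgeR adjusted p = 0.033), a call lost in each fit that left out 1 library but the one without Hnrnpl-null replicate 3 (adjusted p by edgeR of 0.056 to 0.15). Kit, the stem cell factor receptor, had 97.0 ± 4.93 and 88.7 ± 3.93 CPM and was not called. Its WT level too exceeded the pan-leukocyte sum in WT (37.9 to 50.3 CPM), and which cells it came from was not tested. Flt3, a receptor of early progenitors, had 0 counts in each WT library and 18, 4 and 4 in Hnrnpl-null, too few to be tested.

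Of the matching ligands, 5 of 11 were tested and 1 was higher by edgeR (2 without Hnrnpl-null replicate 3 or without both libraries richest in Rn45s). Kitl, which encodes stem cell factor and is made by ovarian somatic cells, rose from 78.4 ± 7.05 to 174 ± 4.02 CPM (edgeR adjusted p = 3.7e-05), and its call held in all 15 alternatives. Csf3, the ligand of the receptor encoded by Csf3r, had 4, 0 and 0 counts in WT and 10, 9 and 0 in Hnrnpl-null and was not tested.

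Of the genes that mark successive granulocyte stages, those of the primary granules were called and those of the secondary granules were not. All 8 primary granule genes were higher, and the 8 calls held in every alternative. Their median log2 fold change was 5.69, the same with Ms4a3, which had no WT count, at its lower bound. This list, like the others, was chosen with earlier results of these data known. The alternatives reuse the same libraries, so these calls are a description. Mpo (2, 12 and 8 counts in WT), Ctsg (2, 2 and 0) and Ms4a3 passed the filter on low counts through the Hnrnpl-null libraries. The 8 genes summed to 16.3 to 21.3 CPM in the WT libraries and 562 to 737 CPM in the Hnrnpl-null ones. In WT most of the sum was Serpinb1a (mean 11.3 CPM) and Srgn (5.31 CPM), and each other gene had a mean of at most 0.843 CPM. In Hnrnpl-null most of it was Mpo (mean 451 CPM). Mpo, the myeloperoxidase, was at 0.263, 0.498 and 0.551 CPM in the WT libraries and 523, 399 and 432 CPM in the Hnrnpl-null ones. The groups of Mpo were farther apart than those of Myb.

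Of 11 secondary granule genes, 6 were tested, 0 were called by edgeR, 2 had an unadjusted p below 0.05, DESeq2 called 0 and limma-voom called 2 lower, and edgeR called 1 lower without Hnrnpl-null replicate 1 and 1 higher without Hnrnpl-null replicate 3. The tested genes had a median log2 fold change of -1.13. All 11 summed to 16.8 to 20.6 CPM in the WT libraries and 6.87 to 16.6 CPM in the Hnrnpl-null ones. The list includes S100a8 and S100a9, which encode proteins of the cytosol and not of granules. These genes had the highest WT means of the list, 4.92 ± 2.13 and 3.84 ± 0.585 CPM. Their Hnrnpl-null means were 2.68 ± 1.23 and 1.44 ± 1.01 CPM. The sum and the median thus do not describe granule genes alone, and neither was computed without S100a8 and S100a9. Ltf, lactoferrin, had 10, 64 and 32 counts in WT and 50, 0 and 0 in Hnrnpl-null. Ngp, another protein of these granules, was at 1.71 ± 0.777 and 0.247 ± 0.306 CPM. Of the 6 tested genes 1, Cybb, had a log2 fold change above 0 (0.95, not called). Cybb was at 2.37, 2.24 and 2.48 CPM in the WT libraries and 5.48, 6.43 and 0 CPM in the Hnrnpl-null ones.

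Of 8 mature neutrophil genes 5 were tested, 1 was higher and 1 lower (median log2 fold change -0.42). Mmp8, the neutrophil collagenase, fell from 3.07 ± 0.978 to 0.619 ± 0.311 CPM (edgeR adjusted p = 0.042), and its call was kept, among the fits that left out 1 library, in the one without Hnrnpl-null replicate 3 (adjusted p by edgeR of 0.054 to 0.24 in the others).

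**Figure D4:**
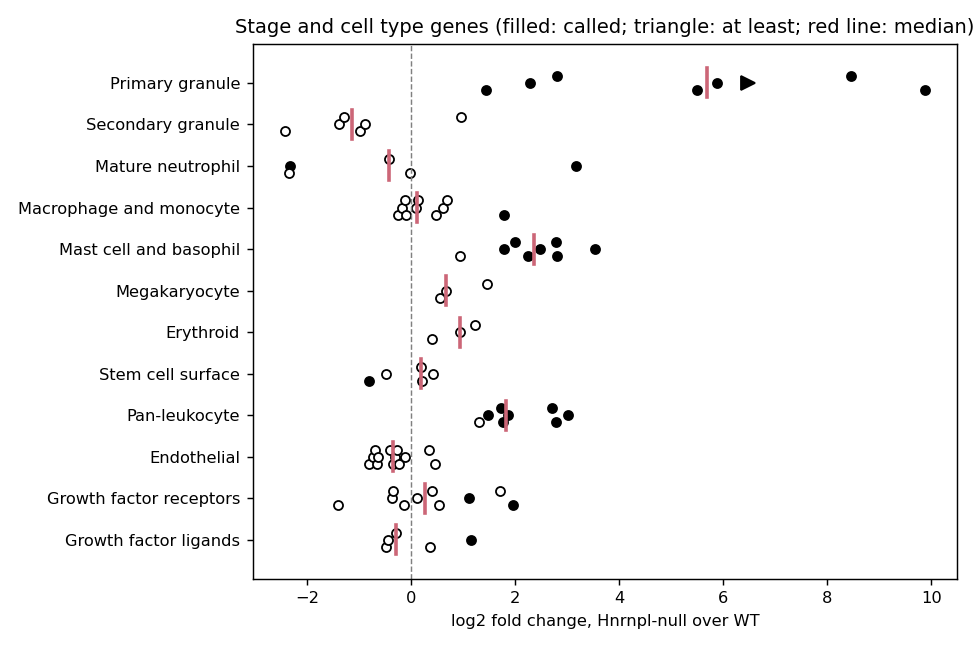
Log2 fold change of Hnrnpl-null over WT for each tested gene of 12 lists (points, filled where called by edgeR), with the list median as a red line and Ms4a3 as a triangle at its lower bound. The primary granule, pan-leukocyte and mast cell lists lie to the right of 0, with medians of 5.69, 1.82 and 2.36, and the secondary granule list has a median of -1.13 with no gene called.

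Several of the 10 genes encode known regulators of granule genes, so sequences around start sites were searched for the words that such factors bind. The words were AGGAAGT for PU.1, TTGCNNAA for C/EBP, TAACNG for MYB and AGATAA for GATA factors, on both strands, in windows of 250 bases before to 50 after each start in RefSeq (GRCm38.p6). They occurred in 9.35%, 10.8%, 23.3% and 11.2% of 32817 such windows. A window was found for 8 of the 10 genes and for 7 of the 8 primary granule genes. Of the 8, Gfi1 and Tal1 held a word, and the Tal1 window holds a GATA word that runs straight into a C/EBP word. The PU.1 word was in 5 of the 7 granule genes (Mpo, Elane, Prtn3, Ctsg and Cst7), the MYB word in 2 (Mpo and Elane), the C/EBP word in 2 (Ms4a3 and Cst7) and the GATA word in 0. The 5 sequences below show these words in capitals, 5′ to 3′ along each gene's strand. They are from chr5:107725756-107726055 (minus) for Gfi1, chr4:115056176-115056475 (plus) for Tal1, chr11:87793534-87793833 (plus) for Mpo, chr10:79886062-79886361 (plus) for Elane and chr10:79879417-79879716 (plus) for Prtn3.
Gfi1: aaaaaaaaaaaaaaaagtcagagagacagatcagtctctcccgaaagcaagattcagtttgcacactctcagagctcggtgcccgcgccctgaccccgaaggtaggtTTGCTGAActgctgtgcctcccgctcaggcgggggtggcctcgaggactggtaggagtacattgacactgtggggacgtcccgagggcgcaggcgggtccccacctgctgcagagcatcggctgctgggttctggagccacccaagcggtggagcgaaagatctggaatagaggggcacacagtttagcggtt
Tal1: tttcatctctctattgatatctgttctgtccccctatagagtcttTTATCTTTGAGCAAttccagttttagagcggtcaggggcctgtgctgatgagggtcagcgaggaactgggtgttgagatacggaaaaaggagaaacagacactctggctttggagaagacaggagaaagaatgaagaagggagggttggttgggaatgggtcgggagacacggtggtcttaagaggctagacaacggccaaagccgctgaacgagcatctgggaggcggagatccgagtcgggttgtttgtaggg
Mpo: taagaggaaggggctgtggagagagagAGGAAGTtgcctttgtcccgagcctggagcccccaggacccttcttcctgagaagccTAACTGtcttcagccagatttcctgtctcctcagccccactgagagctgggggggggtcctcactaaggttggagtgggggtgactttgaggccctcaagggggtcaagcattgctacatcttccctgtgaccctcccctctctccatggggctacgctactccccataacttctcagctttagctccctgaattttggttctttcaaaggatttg
Elane: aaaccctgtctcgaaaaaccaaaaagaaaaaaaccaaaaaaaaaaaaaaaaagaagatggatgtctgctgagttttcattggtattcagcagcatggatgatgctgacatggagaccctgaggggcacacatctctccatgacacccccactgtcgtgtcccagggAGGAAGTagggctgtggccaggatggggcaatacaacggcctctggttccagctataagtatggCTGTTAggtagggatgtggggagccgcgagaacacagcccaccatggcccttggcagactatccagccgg
Prtn3: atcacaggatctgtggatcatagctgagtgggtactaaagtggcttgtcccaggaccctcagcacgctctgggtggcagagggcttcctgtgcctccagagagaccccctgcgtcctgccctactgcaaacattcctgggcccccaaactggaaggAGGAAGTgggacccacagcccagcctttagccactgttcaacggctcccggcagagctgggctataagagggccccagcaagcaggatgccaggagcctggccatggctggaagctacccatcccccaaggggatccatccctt
In Elane, a neutrophil protease gene, the PU.1 word starts 84 bases before the start site and the MYB word, read on the opposite strand, 20 bases before it. In Mpo they lie 223 and 166 bases before it. A match is a description of letters and not evidence of binding, and where none was found, that says only that these letters are not in the window.

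Mast cell genes were higher as well, and endothelial genes were not called. Of 11 mast cell and basophil genes, 8 were tested and 7 were higher (median log2 fold change 2.36), with a sum of 163 to 174 CPM in the WT libraries and 825 to 957 CPM in the Hnrnpl-null ones. Cma1, a mast cell chymase, rose from 40.1 ± 4.64 to 281 ± 18.2 CPM, and 7 remained the number called in each fit that left out 1 library. Mast cells use Gata2 and Spi1, and their part in the values of these genes was not tested. Of 13 endothelial genes, 0 were called by edgeR and 4 had an unadjusted p below 0.05 (median log2 fold change -0.35), with sums of 194 to 237 CPM and 176 to 206 CPM. DESeq2 and limma-voom each called 2 lower and 1 higher, and edgeR called 2 lower without both libraries richest in Rn45s. Endothelial cells use Gata2, Tal1 and Lyl1, and their part in those values was not tested.

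The macrophage and monocyte list had 1 of 10 tested genes higher and 0 lower, with sums of 63.3 to 70.5 CPM in the WT libraries and 84.4 to 106 CPM in the Hnrnpl-null ones. Without WT replicate 1, Hnrnpl-null replicate 1, Hnrnpl-null replicate 3 or both libraries richest in Rn45s, 2 were higher, as with DESeq2. The gene called with all libraries was F13a1, a transglutaminase subunit of monocytes and macrophages, which rose from 6.13 ± 2.07 to 20.6 ± 1.13 CPM (edgeR adjusted p = 4.9e-04). Erythroid and megakaryocyte genes had 3 tested members each, of which 0 were called by edgeR and 2 had an unadjusted p below 0.05 in each list. DESeq2 and limma-voom each called 2 erythroid genes higher and 0 megakaryocyte genes, and edgeR called 2 erythroid genes higher without Hnrnpl-null replicate 3. The sums were 20.8 to 35.6 and 11.9 to 17.7 CPM in the WT libraries and 29.4 to 72.7 and 24.7 to 26.2 CPM in the Hnrnpl-null ones. Hepatocyte genes, which would mark liver tissue, a site of blood formation in the fetus, summed to 0.415 to 1.32 CPM in the WT libraries and 0 to 0.533 CPM in the Hnrnpl-null ones, with 2 of 6 at 0 in all 6 libraries. Osteoblast genes, which would mark bone, summed to 2.90 to 5.01 and 0.625 to 2.06 CPM, with 0 of 2 tested genes called by edgeR, by DESeq2 or by limma-voom and 1 with an unadjusted p below 0.05. Stem cell surface genes had 0 of 5 tested higher by edgeR (2 without both libraries richest in Rn45s, 1 by DESeq2 or limma-voom) and 1 lower. The gene lower was Mllt3, a chromatin reader of stem cells, which fell from 20.6 ± 1.64 to 11.6 ± 1.67 CPM (edgeR adjusted p = 0.020). Its call ended when WT replicate 1, WT replicate 2 or Hnrnpl-null replicate 2 was left out (edgeR adjusted p = 0.059, 0.11 and 0.097). Cd34, a progenitor surface protein, had 35.7 ± 1.44 and 46.6 ± 12.3 CPM and was not called.

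The genes with the profile most like that of Myb over the 6 libraries were Plac8, Nkg7, Prss57, Prtn3 and Spns3, by the root mean square difference of log2 CPM centred on each gene's mean. The difference was 0.39 for Plac8 and 0.56 to 0.61 for the others. Plac8 was at 0.797 ± 0.112 CPM in the WT libraries and 29.2 ± 6.83 CPM in the Hnrnpl-null ones, and all 5 were called higher. Nearest to Spi1 were Cyp11a1, Diras2, Tuba4a, Abcc4 and Csf2rb, at 0.12 to 0.25. Cyp11a1, the enzyme of the first step of steroid synthesis, was at 2.72 ± 1.21 and 11.3 ± 2.63 CPM, and of the 5 Diras2 was not called. These likenesses cover 6 libraries in 2 groups, so any gene of like fold change is near, and they carry no p-value.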

How the data were processed

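RNA-seq of 6 ovary libraries (3 WT, 3 Hnrnpl-null) was used. The authors deposited raw counts per gene, with exon coordinates and exonic length, in the layout of featureCounts per the file headers. The submitters' processing notes list featureCounts 2.0.6, HISAT2 2.2.1 and STAR 2.7.11a and the build mm10, without saying what each did. Annotation, strand setting and the handling of reads with several matches: not given in the sources used here.

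All 6 libraries entered 1 two-sided quasi-likelihood fit on genotype (edgeR 4.0.16 under R 4.3.3: glmQLFit with glmQLFTest, low counts removed with filterByExpr, scaling by TMM). A call is an adjusted p (Benjamini-Hochberg, over the 14849 genes tested) below 0.05. CPM was computed on TMM-scaled library size, and values are mean ± SD (n = 3) with no pseudocount. The likeness of profiles used log2 CPM with a prior count of 2. Standard errors and 95% intervals came from the F statistic of the same fit. The test was checked on simulated data. Counts carry no molecular identifiers, so limits cover counting error only. Replicates of a group differed by more than counting noise, so none was treated as deposited more than once.

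The members and the gene lists were chosen with earlier results of these data known. The text names all 10 members, up to 4 called genes of each list with the smallest p, list genes on which a sentence turns, and the 5 genes nearest to Myb and to Spi1. The alternatives were DESeq2 1.42.0, limma-voom (limma 3.58.1), RLE and upper-quartile factors, no filter, each library left out, both libraries richest in Rn45s left out, the replicate number as a block, the Rn45s row left out and counts halved. Promoter windows came from RefSeq, build GRCm38.p6, matched by symbol. Some genes that this rule would name are not reported here.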

Additional observations from a re-analysis of the deposited data

How the results depend on the processing

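All 148 recomputed log2 fold changes of the 10 genes kept their direction, and 132 kept their call. The number of the 10 called higher was 5, and 7 with DESeq2, with no filter or without both libraries richest in Rn45s, 6 with limma-voom or halved counts, and 3 to 6 when 1 library was left out. None was called lower in any setting run. Genes called over the table were 663, against 1065 with DESeq2, 1273 with limma-voom, 1104 with no filter, and 249 to 853 when 1 library was left out. List genes called were 38, and 28 to 46 when 1 library was left out. With the replicate number as a block, 5 of the 10 genes, 444 genes over the table and 36 list genes were called. Same-numbered libraries did not deviate together (r of -0.12, 0.09 and -0.09), and not every library correlated best with its own number. The highest r, 0.145, was between WT replicate 1 and Hnrnpl-null replicate 3, the libraries richest in Rn45s. With 3 libraries per group these values cannot show whether same-numbered libraries share more than a number. Depth limits Cebpe and Gfi1, which were not tested once counts were halved.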

Other observations

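Eosinophil genes were few in counts and are given as values, with the genes named here chosen after their values were seen. Prg2, the major basic protein of eosinophil granules, had 0 counts in each WT library and 140, 10 and 0 counts in Hnrnpl-null replicates 1 to 3. Of 7 eosinophil genes, 1 was tested and 0 were called by edgeR (0 with an unadjusted p below 0.05), while 1 was called higher by DESeq2, without Hnrnpl-null replicate 3 or without both libraries richest in Rn45s, and 2 with no filter on low counts. Siglecf, a surface lectin of eosinophils, had 0, 2 and 2 counts in WT and 36, 36 and 8 in Hnrnpl-null, and 3 of the 7 genes were at 0 in all 6 libraries. The sum was 0.263 to 1.16 CPM in WT and 2.50 to 11.4 CPM in Hnrnpl-null.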
